A study of Mus musculus with 53 samples.

Results

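The regions described here are sites at which SOX2 and GATA6 peaks coincided in double-positive (DP) mouse embryonic stem cells (ESCs) and at which SOX2 was also found in pluripotent cells. GATA6 was not profiled in the pluripotent libraries used here. For each factor, overlapping peaks of the 3 DP libraries were joined, and a joined region had to hold peaks from 2 or more of them. Where such a SOX2 and a GATA6 region overlapped they formed a co-bound region, giving 984 in all, and 514 of them overlapped a SOX2 peak in at least 4 of 7 pluripotent libraries. These 514 regions are called members below. They were chosen by the measured SOX2 and GATA6 peaks of DP cells and the SOX2 peaks of 2iLIF, NACL and KOSR SOX2+ cells, so those values are given as a description and were not tested. The other 470 co-bound regions had SOX2 in fewer than 4 of the 7 libraries, and 264 of these had it in none. A second set for comparison held 2013 SOX2-kept regions. These passed the same library counts for SOX2 in DP and pluripotent cells but overlapped no DP GATA6 peak of any library. Pluripotent SOX2 was read over the SOX2 region alone for this set, and over the joined SOX2 and GATA6 region for members.

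The cells were SGGC ESCs, in which endogenous SOX2 is fused to GFP and endogenous GATA6 to mCherry, and all groups carried both reporters. 2iLIF (MEK inhibitor, GSK3 inhibitor and LIF) and NACL (Activin A, GSK3 inhibitor and LIF) cells were cultures of clones B9 and B12 with 1 library each per antibody. KOSR cells, grown in serum replacement medium, were clone B12 only and were sorted by their reporters into SOX2+ and DP cells in experiments A, A1 and B. It is not known here whether A and A1 were separate cultures and sorts or repeat libraries of 1 sort. nEnd cells were naive extra-embryonic endoderm of clones B9 and B12, except that both nEnd H3K4me1 libraries came from clone B9. Each position was profiled by CUT&RUN, in which an antibody directs micrococcal nuclease to cut the DNA around a bound protein or a modified histone. The labels give no separate cultures for most libraries, so a p-value over libraries measures the spread between these libraries, which may be partly technical.

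SOX2 is an HMG-box transcription factor that often binds DNA with the POU factor OCT4 and is required for epiblast and pluripotent identity. GATA6 is a zinc-finger factor that binds GATA sequences and is required for primitive endoderm (PrE), the extra-embryonic lineage that separates from the epiblast in the blastocyst. H3K4me1 is found at enhancers whether active or primed, and H3K27ac marks active enhancers and promoters. Members are therefore sites of an epiblast factor at which the endoderm factor was also found where both were present.

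The members were short regions, with a median width of 557 bp and a range of 235 to 2250 bp. The DNA at the centre of 6 members named below is shown as examples. The Eed region had no GATA6 in nEnd, and the others had it in both nEnd libraries. Members with GATA6 in 1 nEnd library, or with neither string at the centre, are not among them. The sequences are the 200 bp around the centre of each region, from the plus strand of the RefSeq GRCm38 assembly, and capitals mark the GATA string AGATAA or the SOX string CATTGT on either strand (TTATCT and ACAATG on the strand shown are their reverse complements). In Tbx3 and Calcoco2 the centre held 2 GATA strings and no SOX string, in Lamc1 1 GATA and 2 SOX strings, in Klf4 1 GATA string, in Eed 1 of each, and in Sall4 1 SOX string alone.
Tbx3, chr5:119585121-119585320: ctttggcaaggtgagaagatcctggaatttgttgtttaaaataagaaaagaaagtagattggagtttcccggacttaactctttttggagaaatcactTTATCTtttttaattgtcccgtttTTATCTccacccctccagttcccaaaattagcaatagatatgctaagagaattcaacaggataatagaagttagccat
Calcoco2, chr11:96114200-96114399: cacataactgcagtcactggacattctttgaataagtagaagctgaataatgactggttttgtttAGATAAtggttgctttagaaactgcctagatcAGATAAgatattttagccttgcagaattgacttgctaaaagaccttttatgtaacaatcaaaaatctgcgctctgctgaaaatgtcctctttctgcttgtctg
Lamc1, chr1:153358719-153358918: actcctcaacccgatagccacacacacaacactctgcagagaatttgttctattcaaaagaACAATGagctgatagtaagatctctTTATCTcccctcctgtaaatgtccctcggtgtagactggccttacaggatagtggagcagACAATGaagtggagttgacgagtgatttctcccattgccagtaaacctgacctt
Klf4, chr4:55464248-55464447: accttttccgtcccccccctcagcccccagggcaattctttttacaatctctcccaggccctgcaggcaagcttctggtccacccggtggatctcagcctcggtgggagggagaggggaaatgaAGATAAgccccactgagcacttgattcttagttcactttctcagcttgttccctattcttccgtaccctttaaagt
Eed, chr7:90025023-90025222: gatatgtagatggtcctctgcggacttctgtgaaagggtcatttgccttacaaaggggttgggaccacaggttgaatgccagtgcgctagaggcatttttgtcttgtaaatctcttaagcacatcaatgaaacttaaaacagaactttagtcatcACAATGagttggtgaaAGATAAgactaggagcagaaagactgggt
Sall4, chr2:168762083-168762282: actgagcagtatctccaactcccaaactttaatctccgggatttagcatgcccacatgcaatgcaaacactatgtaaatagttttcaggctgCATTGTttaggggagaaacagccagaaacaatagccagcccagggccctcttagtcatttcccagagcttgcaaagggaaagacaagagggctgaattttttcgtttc

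The number of members rested on 2 of the 3 DP experiments. Experiment B gave 1378 SOX2 peaks and 1391 GATA6 peaks, against 4859 and 5320 SOX2 peaks and 8316 and 3821 GATA6 peaks in experiments A and A1. The name of the GATA6 list of experiment A holds the tag sub, which may mean that its reads were subsampled, so its peak number and percentiles may not compare directly with those of the others. Of the members, 259 (50.4%) had SOX2 in all 3 DP libraries and 205 (39.9%) had GATA6 in all 3. At the other co-bound regions experiment B gave SOX2 at 5.53% and GATA6 at 60%, against 51.2% and 42.2% at members. Comparisons that needed experiment B thus drew on few of the other co-bound regions. Without experiment B, and with both remaining libraries required, 499 members were found. Without experiment A there were 121, and without experiment A1 there were 128. If A and A1 were 1 sort, a factor that lacked a peak in experiment B was seen at that member in a single sort.

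SOX2 at the members in pluripotent cells was densest in NACL and KOSR SOX2+ cells. A SOX2 peak was present at 96.9% and 91.6% of members in NACL B9 and B12. The KOSR SOX2+ libraries A, A1 and B gave 97.7%, 97.5% and 89.1%, and 2iLIF B9 and B12 gave 80.2% and 69.3%. The 2iLIF libraries were the lowest of the 7, and they had 13177 and 8203 peaks against 29623 in NACL B9. KOSR SOX2+ B had 10513 peaks, fewer than 2iLIF B9, and a higher share of members. In all, 316 members had SOX2 in each of the 7 libraries, 92 (17.9%) had none in 2iLIF, 5 had none in NACL and 2 had none in KOSR SOX2+ cells. These counts depend on the rule, in which KOSR SOX2+ cells supplied more of the 7 libraries than 2iLIF or NACL. The SOX2-kept regions showed the same order, with means of 88.9% in 2iLIF, 97.2% in NACL and 98.8% in KOSR SOX2+ cells. Peak strength is given as the percentile of a peak's max signal among all peaks of its library, since the signal is on a scale of its own in each library. At members, the median percentile of the SOX2 peaks lay between 70.3 and 83.8 over the 7 pluripotent libraries and was 80.6, 81.7 and 53.2 in DP A, A1 and B. For GATA6 it was 75.3, 54.5 and 50.4 in DP A, A1 and B.

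The cut at 4 libraries divided a graded series. Co-bound regions with SOX2 in exactly 4 libraries numbered 66 and those with SOX2 in exactly 3 numbered 67. H3K27ac in KOSR SOX2+ cells was found at 36.4% of the former and 31.3% of the latter (means of 2 libraries), and H3K4me1 in the same cells at 72.7% and 67.9%. GATA6 in nEnd was found at 70.5% and 75.4%. The plot by number of SOX2 libraries shows the ends of the series: in KOSR SOX2+ cells H3K27ac lay at 5.49% of the regions with no pluripotent SOX2 and at 59% of those with SOX2 in all 7.

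**Figure D1:**
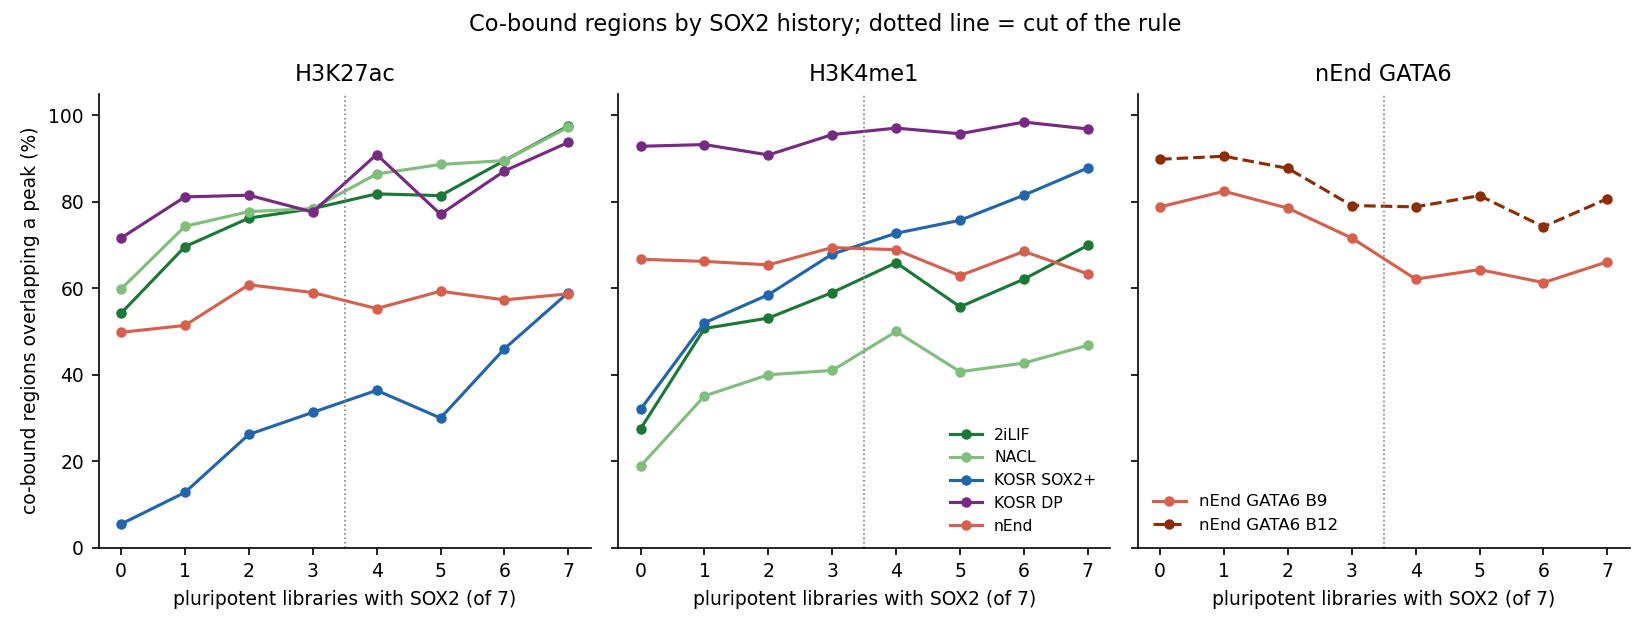
Share of co-bound regions that overlapped an H3K27ac, H3K4me1 or nEnd GATA6 peak (y axis, %), by the number of pluripotent libraries with SOX2 at the region (x axis, 0 to 7); histone marks are means over the libraries of a population, GATA6 is shown per nEnd library, and members lie to the right of the dotted line. KOSR SOX2+ H3K27ac ran from 5.49% at 0 libraries to 59% at 7, while nEnd H3K27ac was 49.8% at 0 and 58.7% at 7.

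Members lay mainly away from promoters. Of the 514, 444 (86.4%, 95% exact binomial interval 83.1 to 89.2) were at least 1 kb from any annotated transcription start site, against 90.2% of the other co-bound regions and 87.4% of the SOX2-kept regions. The median distance from the centre to the nearest start site of a protein-coding gene was 21416 bp for members, 19970 bp for the other co-bound regions and 21827 bp for the SOX2-kept regions. By their centre, 285 members were intergenic, 187 lay in introns of protein-coding genes, 41 in non-coding genes, 1 in a UTR and none in coding sequence. They were spread over 456 nearest genes, and 52 genes were nearest to more than 1 member. On chromosome Y, 3 neighbouring members lay in Gm47283, in the pseudoautosomal part that Y shares with X, so reads there cannot be placed on one copy, and none of the 3 had GATA6 in nEnd.

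The GATA string was common in members, but less so than in the other co-bound regions. AGATAA occurred on either strand in the central 500 bp of 375 members (73%, interval 68.9 to 76.8). The other co-bound regions had it in 90.2% (87.2 to 92.7), those of them with no pluripotent SOX2 in 91.3% (87.2 to 94.4), DP GATA6 regions without DP SOX2 in 87.1% (85.6 to 88.5), the SOX2-kept regions in 27.3% (25.4 to 29.3) and 500 bp windows placed every 100 kb along the genome in 29.8%. Counted over whole regions, members held 2.05 AGATAA strings per kb, the other co-bound regions 3.55 and the SOX2-kept regions 0.643. The SOX string CATTGT was found in 45.7% of members (41.4 to 50.1), 44% of the other co-bound regions, 50.5% of the SOX2-kept regions, 26.9% of GATA6 regions without SOX2 and 28.5% of genome windows. Both strings were present in 168 members (32.7%), the GATA string alone in 207, the SOX string alone in 67 and neither in 72 (14%).

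Strings of other pluripotency factors were present in few members. ATGCAAAT, an octamer bound by OCT factors, was in 8.95% of members, 5.96% of the other co-bound regions, 8.1% of the SOX2-kept regions and 4.44% of genome windows. TCAAGGTCA, bound by the orphan receptor ESRRB, was in 6.23% of members, 5.11% of the other co-bound regions, 6.66% of the SOX2-kept regions and 1.08% of windows. CCACACCC, bound by KLF factors, was in 8.56%, 8.3%, 6.51% and 2.99% of the same sets. CATTGT followed after 1 base by ATGCAA, one spelling of the composite site of SOX2 and OCT4, was in 0 of 514 members, where the 95% exact interval reaches up to 0.715%, and in 3 of the 2013 SOX2-kept regions. The composite contains CATTGT and shares letters with the octamer, so they overlap. Mean GC content of the windows was 43.5% in members, 42.8% in the other co-bound regions, 43.9% in the SOX2-kept regions and 41.7% along the genome. A match describes the letters only, and the bound base was not measured.

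**Figure D2:**
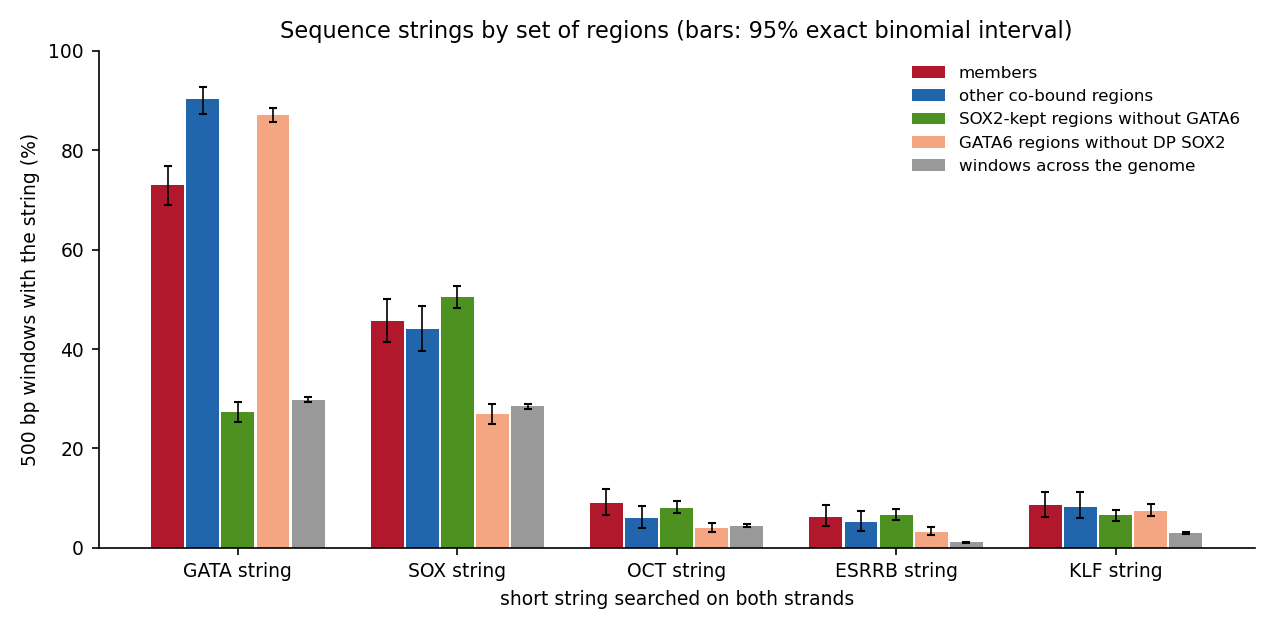
Share of 500 bp windows that held a short string on either strand (y axis, %), for 5 strings (x axis) and 5 sets of regions; bars show the share and error bars the 95% exact binomial interval over regions. The GATA string was in 73% of members, between 90.2% of the other co-bound regions and 27.3% of SOX2-kept regions without GATA6.

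H3K27ac was found at most members in the 2iLIF and NACL libraries. It lay at 91.8% and 92.8% of members in 2iLIF B9 and B12, at 91.6% and 95.7% in NACL B9 and B12, and at 49.6% and 51.6% in KOSR SOX2+ A and B. The KOSR SOX2+ libraries were the lowest of the 6, with 13514 and 14722 peaks against at least 210904 in each 2iLIF and NACL library. In nEnd the mark lay at 52.9% (B9) and 63.4% (B12) of members. The pluripotent mean was 78.9% ± 22 (SD, n = 6) and the nEnd mean 58.2% ± 7.43 (SD, n = 2), a difference of 20.7 points (two-sided exact permutation test, p = 0.429, where 28 splits allow no p below 0.0714; adjusted p = 0.514 over 6 tests). The groups overlapped, since both KOSR SOX2+ values were below both nEnd values. With every library held to its 13514 strongest peaks, the means were 57.8% ± 6.94 and 53.4% ± 7.84 and the difference 4.44 points.

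H3K4me1 at members had close means in pluripotent and nEnd cells. The 2iLIF libraries B9 and B12 showed it at 56.4% and 76.7% of members, those of NACL at 47.3% and 44.6%, and KOSR SOX2+ A and B at 81.9% and 85%. The nEnd libraries gave 68.7% and 60.5%. The difference of means was 0.713 points (exact permutation test, p = 1), and both nEnd values fell inside the pluripotent range. At equal peak numbers the difference was -5.48 points, and among libraries of clone B9, the only clone with nEnd H3K4me1, it was -12.7 points. In that clone both nEnd values lay above those of 2iLIF (56.4%) and NACL (47.3%). The order of the 3 pluripotent populations differed between the marks, with KOSR SOX2+ cells lowest for H3K27ac and highest for H3K4me1.

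DP cells had 1 library of each mark, so no test was made. H3K27ac was found at 90.3% of members in DP cells and H3K4me1 at 96.9%. Those libraries had 76260 and 130749 peaks. With all peaks, DP H3K27ac was below the 2iLIF and NACL libraries (91.6% to 95.7%), while DP H3K4me1 was the highest of its mark. At the peak number of the mark's smallest library, DP gave the highest share at members of all 9 libraries of each mark. For H3K27ac it was 75.9%, against 47.9% to 68.9% in the others, and 49.6% and 51.4% in KOSR SOX2+ A and B. For H3K4me1 it was 76.5%, against 39.1% to 63%. At the other co-bound regions the DP H3K27ac share at equal peak numbers was 51.5% and nEnd B12 reached 54.3%. DP H3K4me1 there was 59.4%, and the second nEnd library gave 64.7%. At the SOX2-kept regions DP H3K27ac was 45.7%, and NACL B12 gave 62.9%. Members were chosen by factor peaks of DP cells, and how far this raised the DP shares was not tested.

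Members carried both marks in pluripotent cells more often than other co-bound regions did. The sets were divided by SOX2 peaks of these same populations, so part of this difference may follow from the rule. H3K27ac was higher at members in 6 of 6 pluripotent libraries, by 31 points ± 6.93 (SD, n = 6; exact sign-flip permutation test, p = 0.0312, adjusted p = 0.0469). H3K4me1 was also higher in 6 of 6, by 28.4 points ± 9.55 (exact sign-flip permutation test, p = 0.0312, adjusted p = 0.0469). These are the smallest p-values that 64 sign patterns allow, 2 libraries came from each population, and the adjusted value passes 0.05 only while at least 4 of the 6 tests reach that smallest p. Where DP experiment A or A1 was left out, few other co-bound regions remained. Both differences then kept p = 0.0312 in the exact sign-flip test and had an adjusted p of 0.0938. By population, the H3K27ac difference was 29.2 points in 2iLIF, 26.4 in NACL and 37.4 in KOSR SOX2+ cells. With every library held to its 13514 strongest peaks these were 38.2, 41 and 37.5 points, so the order of the populations depended on peak number. Against the 264 co-bound regions with no pluripotent SOX2, it was 39 points ± 8.54 for H3K27ac and 39.2 ± 11 for H3K4me1. Outside the pluripotent libraries no test was made. In DP cells the differences were 15 points for H3K27ac and 3.91 for H3K4me1, and at equal peak numbers 24.4 and 17.1 points. In nEnd they were 5.3 points ± 0.244 for H3K27ac and -2.22 ± 2.77 for H3K4me1 (SD, n = 2), and 5.75 and -2.89 points at equal peak numbers.

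Compared with SOX2-kept regions without GATA6, members differed little in pluripotent cells and more in nEnd. H3K27ac was higher at members in 6 of 6 pluripotent libraries, by 2.44 points ± 2.15, and H3K4me1 by 6.16 points ± 4.14 (both exact sign-flip permutation tests, p = 0.0312, adjusted p = 0.0469). The sets were not equal in pluripotent SOX2, which lay at 74.7% of members and 88.9% of SOX2-kept regions in 2iLIF (library means). In KOSR SOX2+ cells these were 94.7% and 98.8%. The median width was 557 bp for members and 423 bp for SOX2-kept regions. With both sets read in the central 500 bp the differences were 2.05 and 5.37 points (exact sign-flip p = 0.0625 and 0.0312, adjusted p = 0.0938 and 0.0625). The H3K27ac difference was larger and kept its call with SOX2 required in all 7 libraries (6.24 points), at equal peak numbers (4.34) and with DP peaks of any library (3.75; exact sign-flip adjusted p = 0.0469 in each). Where SOX2 in at least 1 of 7 libraries sufficed for both sets, H3K27ac reversed to -2.64 points, with the smallest p that 6 libraries allow (exact sign-flip p = 0.0312, adjusted p = 0.0625), and H3K4me1 was 2.93 (exact sign-flip p = 0.312). Both calls were also lost without DP experiment A, at 1.67 and 3.77 points (exact sign-flip p = 0.406 and 0.156), and without A1, at 1.12 and 3.49 points (exact sign-flip p = 0.719 and 0.125). In nEnd, H3K27ac was higher at members by 24.4 points ± 2.76 and H3K4me1 by 29 ± 2.37 (SD, n = 2), and in DP cells by 21.6 and 6.67 points, with no test. At equal peak numbers the DP differences were 30.2 and 21.3 points and those of nEnd 25 and 28.2.

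**Figure D3:**
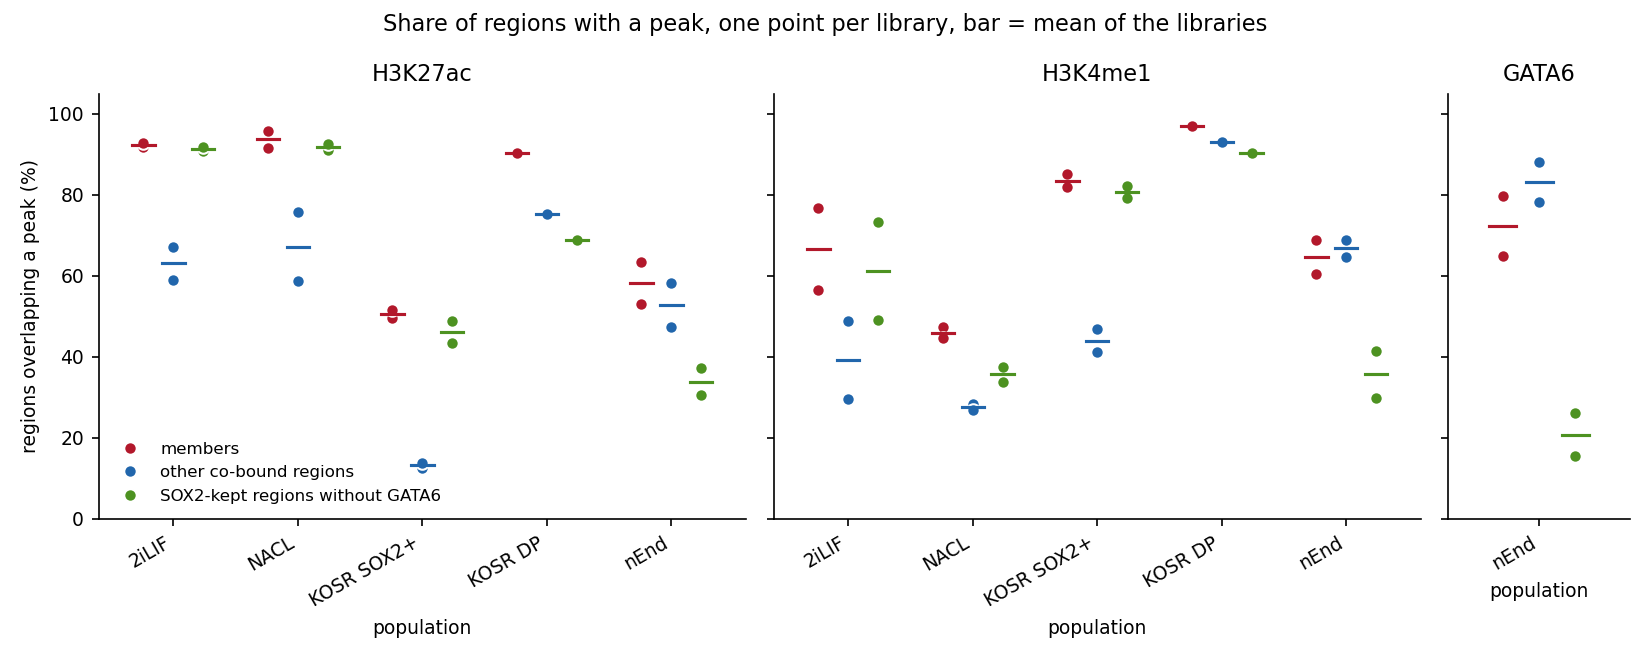
Share of regions overlapping a peak (y axis, %), one point per library and a bar for the mean, by population (x axis) for H3K27ac, H3K4me1 and nEnd GATA6; colours give the set of regions. Members sat above the other co-bound regions in every pluripotent library of both marks, and in nEnd the H3K4me1 values of both sets lay within 60.5% to 68.9%.

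GATA6 in nEnd was found at most members but at fewer of them than of the other co-bound regions. In nEnd B9 a GATA6 peak lay at 333 members (64.8%, interval 60.5 to 68.9) and in B12 at 410 (79.8%, 76 to 83.2). The other co-bound regions had it at 78.3% and 88.1%, and the SOX2-kept regions at 15.4% and 26%. Members were thus 10.9 points ± 3.67 below the former and 51.6 points ± 3.08 above the latter (SD, n = 2, no test, since 2 libraries allow no p below 0.5). Without DP experiment A1, which left few other co-bound regions, the first difference was -4.4 points. The second difference follows in part from the rule, because members were required to have GATA6 in DP cells and the SOX2-kept regions to lack it. GATA6 lay in both nEnd libraries at 331 members (64.4%, against 71% of all 984 co-bound regions), in 1 at 81 and in neither at 102 (19.8%).

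Members with and without nEnd GATA6 had close mark shares in pluripotent cells and distant ones in nEnd. H3K27ac in nEnd B9 and B12 lay at 73.4% and 85.8% of the 331 members with GATA6 in both nEnd libraries, and at 10.8% and 10.8% of the 102 without. H3K4me1 in the 2 nEnd libraries lay at 77.9% and 75.8% of the former and 40.2% and 17.6% of the latter. In pluripotent cells H3K27ac lay at 79.1% ± 22.1 and 75.8% ± 22 of these members and H3K4me1 at 64.5% ± 16.1 and 65.4% ± 20.3 (SD, n = 6), and in DP cells H3K27ac at 91.2% and 88.2%. SOX2 was present in all 7 pluripotent libraries at 62.8% of the former and 58.8% of the latter. In DP cells the GATA6 peaks were stronger at members with GATA6 in both nEnd libraries than in neither, with median percentiles of 77.9 against 60 in experiment A, 59.1 against 42.9 in A1 and 50.4 against 40.5 in B. The 81 members with GATA6 in 1 nEnd library had 81.8, 54.5 and 40.5, above both classes in A and equal to the lower one in B. For DP SOX2 the medians of both and neither were 85.6 against 67.1 in A, 85.7 against 72 in A1 and 53.2 in each in B. No test was made of these differences, since the classes are regions of the same libraries.

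The GATA string was about as frequent in members with GATA6 in both nEnd libraries as in those with none, and the SOX string was more frequent in the former. AGATAA was in 71.9% (66.7 to 76.7) of the members with GATA6 in both nEnd libraries and in 70.6% (60.7 to 79.2) of those with none. CATTGT was in 51.1% (45.5 to 56.6) and 34.3% (25.2 to 44.4). The 81 members with GATA6 in 1 nEnd library had AGATAA in 80.2% (69.9 to 88.3) and CATTGT in 38.3% (27.7 to 49.7). The median distance to the nearest protein-coding start site was 17256 bp with GATA6 in both nEnd libraries and 33100 bp with none, while the share at least 1 kb from any start site was 85.8% and 86.3%.

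Of the 514 members, 307 (59.7%, against 43.3% of all co-bound regions) carried both histone marks in at least 4 of 6 pluripotent libraries each, 196 (38.1%, against 38.7%) carried both in both nEnd libraries, and 454 (88.3%, against 81.3%) carried both in DP cells. Both criteria together divided them into 151 marked in pluripotent and nEnd cells, 156 in pluripotent cells alone, 45 in nEnd alone and 162 in neither. GATA6 was present in both nEnd libraries at 138 of the 151 (91.4%) and at 44 of the 45, but at 58 of the 156 (37.2%). In the same 3 states the other co-bound regions had it at 93.2%, 97.3% and 67.4%, and the SOX2-kept regions at 41.4%, 56% and 5.56%. Of those 156, 57 (36.5%) had no GATA6 peak in either nEnd library and 147 (94.2%) carried both marks in DP cells. In the same state these shares were 19.6% and 89.1% of the other co-bound regions, and 86.6% and 77.2% of the SOX2-kept regions. Among the other co-bound regions, 46 were marked in pluripotent cells alone and 112 in nEnd alone.

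**Figure D4:**
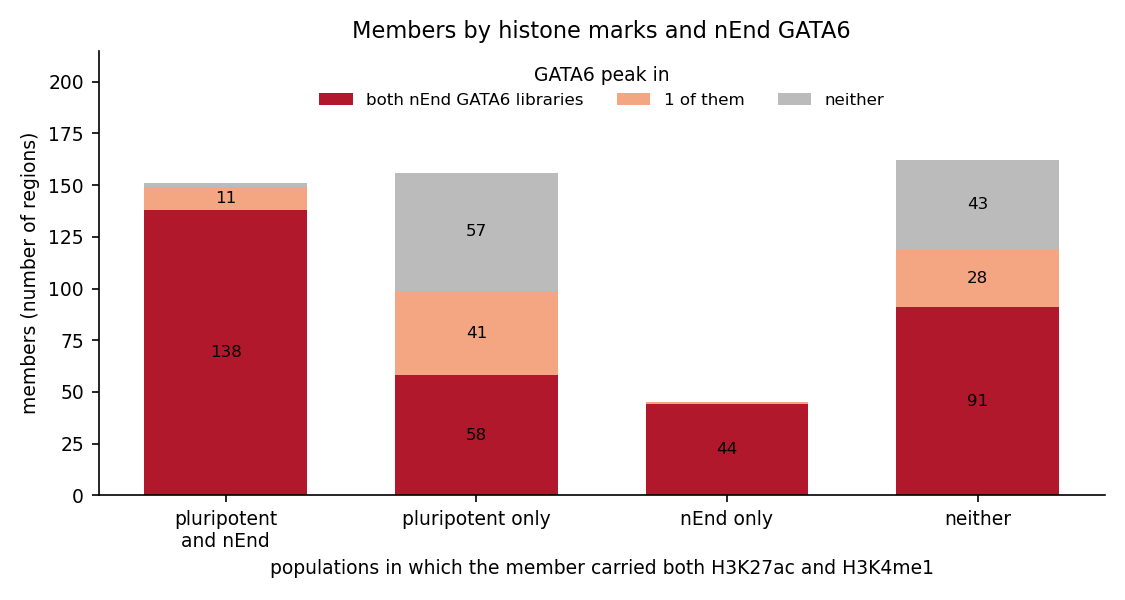
Number of members (y axis) by the populations in which they carried both H3K27ac and H3K4me1 (x axis: at least 4 of 6 pluripotent libraries of each mark, both nEnd libraries of each mark), with colours for the number of nEnd libraries with GATA6. Of the 151 members marked in pluripotent and nEnd cells 138 had GATA6 in both nEnd libraries, against 58 of the 156 marked in pluripotent cells alone.

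GATA6 was in both nEnd libraries and H3K27ac in neither at 41 members (7.98%), against 23.4% of the other co-bound and 1.49% of the SOX2-kept regions. The 3 of these closest to a listed gene were chr14:106008929-106009411, 112351 bp from the start site of Spry2, a Klf4 region at chr4:55676596-55677198 and a Jarid2 region at chr13:44559563-44560066. The reverse, H3K27ac in both nEnd libraries and GATA6 in neither, was seen at 9 members (1.75%), against 0.851% of the other co-bound and 10.3% of the SOX2-kept regions. Of the 9, the 3 closest to a listed gene were at least 990747 bp from it. One of those lay 285 bp upstream of Usp48, which encodes a deubiquitinase.

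Genes near members were counted in lists of genes known for these lineages. Of all 21911 protein-coding genes, 3.17% had a member within 50 kb of a start site. Among the lists, this held for 1 of 30 pluripotency and epiblast factors (Sall4), 2 of 30 PrE genes (Lamc1 and Lrpap1), 3 of 30 signalling genes (Dusp6, Spry2 and Id3), 4 of 20 chromatin and DNA methylation genes (Dnmt3a, Eed, Kdm4c and Trim28) and none of 15 trophoblast and 15 neural genes. These shares, of 3.33%, 6.67%, 10% and 20%, rest on 1 to 4 genes each. For comparison, the other co-bound regions lay within 50 kb of 7 pluripotency and 12 PrE genes (2.74% of all genes), and the SOX2-kept regions of 17 pluripotency and 4 PrE genes (11.3% of all genes). For the signalling list these counts were 1 and 9 of 30, and for the chromatin list 2 and 8 of 20. In all, 19 members had a listed gene as their nearest protein-coding gene, some of them beyond 50 kb. A nearest gene is a position, and regulation of it was not measured.

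Members near pluripotency genes differed in what became of GATA6 in nEnd. The Sox2 region, chr3:34745171-34745710, lay 95035 bp downstream of the start site of Sox2 and had SOX2 in all 7 pluripotent and GATA6 in all 3 DP libraries. Its GATA6 percentiles were 80, 84.2 and 71.5 in DP A, A1 and B, and it had no GATA6, H3K27ac or H3K4me1 peak in nEnd, whereas both marks were in 6 of 6 pluripotent libraries. Its 500 bp window held 2 GATA strings and no SOX string.

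For Klf4, a Krüppel-like factor of naive pluripotency, the region chr4:55464096-55464599 was strong in pluripotent SOX2, at percentiles of 95.1 and 90.3 (2iLIF), 98.5 and 96.7 (NACL) and 95.9, 96.4 and 93.9 (KOSR SOX2+). In DP A and A1 its SOX2 percentiles were 42.2 and 55.4, and DP B had no SOX2 peak. Its DP GATA6 percentiles were 60, 16.2 and 3.41. GATA6 was present in both nEnd libraries, at 43.7 and 57.6, with H3K27ac and H3K4me1 in both.

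Sall4, a zinc-finger partner of OCT4, held 2 adjacent members in an intron, at chr2:168761986-168762380 and chr2:168762433-168763231. The larger had a peak in all 15 SOX2 and GATA6 libraries, with SOX2 percentiles of 99.7, 99.4 and 93.4 and GATA6 percentiles of 98.1, 97.5 and 89.5 in DP A, A1 and B, and 91 and 98.1 for GATA6 in nEnd. The smaller had no SOX2 peak in 2iLIF B9 and no GATA6 peak in DP B. The 2 regions are neighbours and share peaks in some libraries, so they are not separate observations. Tbx3, a T-box factor expressed in naive ESCs and PrE, was the nearest gene of the regions chr5:119584939-119585503 and chr5:119614382-119614823, 85448 and 56067 bp upstream. The first had a peak in all 15 libraries and 2 GATA strings, and the second had peaks in 10 and no GATA string. Both carried both marks in 6 of 6 pluripotent and both nEnd libraries.

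Members near PrE genes included GATA6 peaks at the top of a library's range. The Lrpap1 region, chr5:35104579-35105143, lay 321 bp upstream of a start site of Lrpap1, a chaperone of LDL-family receptors such as megalin. Its GATA6 peaks were at percentiles 100, 100 and 99.3 in DP A, A1 and B and 99.8 and 100 in nEnd B9 and B12, while its SOX2 peaks were at 35.1 and 8.52 in 2iLIF, 70.5 and 76.9 in NACL, 79.8, 87.3 and 67.7 in KOSR SOX2+ cells and 88.9 and 77.7 in DP A and A1. Lamc1, which encodes the laminin gamma 1 chain of basement membrane, had members at chr1:153358400-153359237 and chr1:153376331-153377299, 26032 and 44029 bp upstream. The nearer had GATA6 percentiles of 100 and 99.9 in nEnd and no SOX2 peak in 2iLIF, and the farther had peaks in all 15 libraries. The member assigned to Dab2, an endocytic adaptor of PrE, was 254906 bp upstream at chr15:6044567-6045198 and had GATA6 in nEnd B12 only.

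Among signalling and chromatin genes, GATA6 was present in both nEnd libraries at the members of Dusp6, Spry2, Id3, Dnmt3a and Kdm4c. Dusp6 and Spry2 are feedback inhibitors of FGF/ERK signalling, and Id3 is a BMP target. The Spry2 region was among the 92 members with no SOX2 peak in 2iLIF, as were the second Tbx3 region and the nearer Lamc1 region. The Dnmt3a region, chr12:3889902-3890630, lay in an intron 1462 bp upstream of one start site of this de novo DNA methyltransferase. The region of Eed, a subunit of Polycomb repressive complex 2, was chr7:90024864-90025381. Like the Sox2 region it had SOX2 in all 7 pluripotent libraries and no GATA6 or H3K27ac in nEnd. For Jarid2, a cofactor of the same complex, the region 169660 bp upstream had peaks in all 15 libraries and no nEnd H3K27ac, and the one 51114 bp upstream had GATA6 in nEnd B12 only.

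A peak in all 15 libraries was found at 71 members (13.8%). The 10 of these with the strongest DP GATA6 peaks were the Sall4 and Tbx3 regions, the distal Jarid2 region and regions nearest to Calcoco2, Arhgap21, Cd59a, Cct8l1, 1700024P04Rik, Nrg2 and Yipf5. Calcoco2 encodes an autophagy receptor and Cd59a a complement inhibitor. The Calcoco2 region, chr11:96113866-96114734, had GATA6 percentiles of 100, 99.7 and 99.3 and SOX2 percentiles of 99.9, 99.8 and 97.3 in DP A, A1 and B, with 3 GATA strings in its 500 bp window. The Arhgap21 region, chr2:20929960-20930641, had GATA6 at 99.9 and 99.8 in nEnd, and SOX2 at 13.7 and 31.5 in 2iLIF. The high DP GATA6 percentiles of these regions follow from how they were chosen. The plot of peak strength shows them beside the members of the listed genes.

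**Figure D5:**
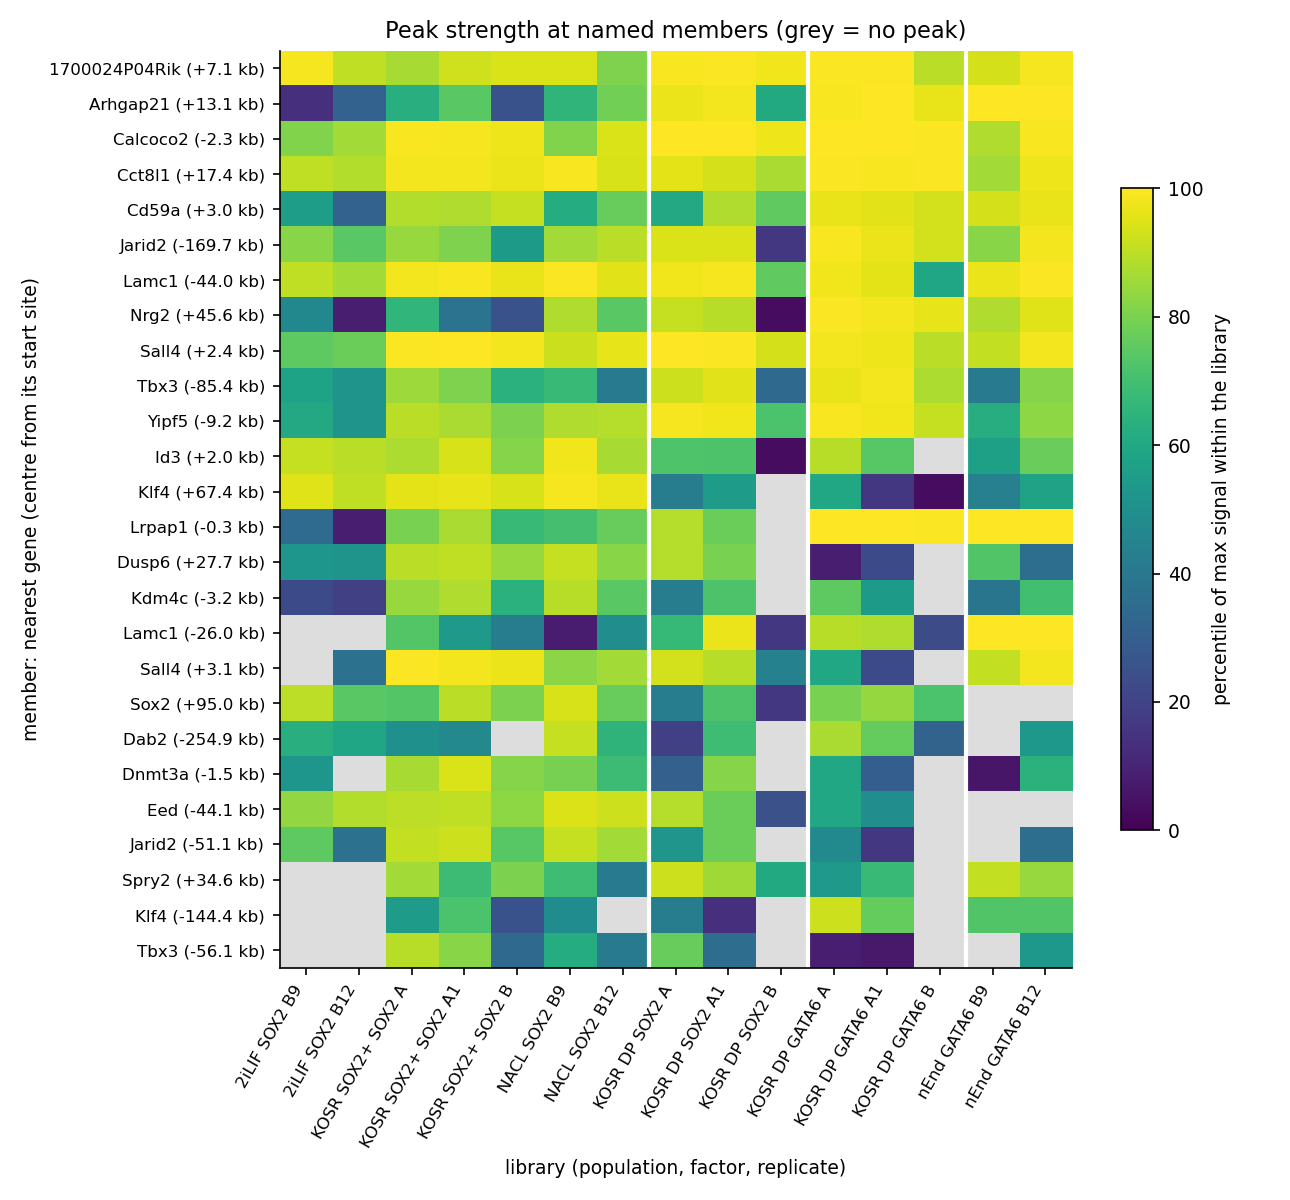
Percentile of max signal within each library (colour, 0 to 100; grey, no peak) at 26 named members (rows, with the distance in kb of the region's centre from the start site of the nearest gene) in 15 SOX2 and GATA6 libraries (columns; white lines divide pluripotent SOX2, DP SOX2, DP GATA6 and nEnd GATA6). Rows are ordered by the number of libraries with a peak, and the Sox2 and Eed rows have no nEnd GATA6 peak.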

How the data were processed

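CUT&RUN peak lists of 35 libraries were used, 33 of which could be assigned to a population and antibody from the labels, and 18 other samples were not analysed here. Per the labels and the methods of the study, the authors used cutadapt 1.18 for trimming, Bowtie2 2.3.4.1 for alignment to mm10 (GRCm38), SAMtools 1.9, Picard 2.9.1, bedtools 2.27.1 and deepTools 3.2.0, and SEACR to call the peaks of each library over IgG. The deposited values are the total and max signal (coverage) of each peak, on each library's own scale. Read depth is unknown. The lists are named for the relaxed mode for histone marks and the stringent mode for factors, while the methods give the opposite. Peak numbers ranged from 1378 to 401853 and limit what share of regions a library can show.

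The autosomes (1 to 19) and X and Y were included, and overlap meant at least 1 bp. A library's value is the share of regions that a peak of it overlaps. Shares were compared over libraries by exact permutation or sign-flip tests (two-sided, numpy and scipy), with Benjamini-Hochberg adjustment over 6 tests and a threshold of 0.05. Regions are not replicates, so intervals (95% Clopper-Pearson) cover counting error over regions only. Genes and their start sites were those of GENCODE M21, and sequences those of RefSeq GRCm38. The scripts were tested on simulated peaks. The members and lists were chosen with earlier results of these data known. Named members are those whose nearest protein-coding gene is in a list, the 10 with peaks in most of the 15 SOX2 and GATA6 libraries (ties by DP GATA6 percentile), and up to 3 examples each where GATA6 and H3K27ac in nEnd disagreed. Alternatives covered the number of libraries required, the overlap, peak strength and number, window, distance to start sites and each library left out.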

Additional observations from a re-analysis of the deposited data

Results flagged for a closer look

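The H3K4me1 difference between members and the other co-bound regions had opposite signs in pluripotent and nEnd cells. Members were higher in every pluripotent library (mean 28.4 points, n = 6). In nEnd the differences were small, at -0.259 and -4.18 points (mean -2.22 points, n = 2), and the intervals of the sets overlapped in both libraries. The difference between the populations was not tested.

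The 2 KOSR libraries whose labels name different sorted populations entered no comparison, and each had peaks at members. H3K4me1 lay at 89.9% of members and 76.6% of the other co-bound regions, and H3K27ac at 66.7% and 35.7%. These libraries had 94492 and 19185 peaks. No library stood apart by Dixon's test in any of the 11 sets of 6 or 7 values examined. That test compares an extreme value with its nearest neighbour, so low libraries that lie close together hide each other. It therefore cannot show whether the KOSR SOX2+ H3K27ac libraries stood apart. These had the mark at 49.6% and 51.6% of members, against 91.6% to 95.7% in the 2iLIF and NACL libraries.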

How the results depend on the processing

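The adjusted p of the 4 differences between members and comparison sets in pluripotent cells passes 0.05 only while at least 4 of the 6 tests reach the smallest p, so a change in one test moved the others over the threshold. The exact p of both differences from other co-bound regions was 0.0312 in every alternative with 6 libraries. Few other co-bound regions remained where DP peaks of experiment B were needed. Below, values stand in the order H3K27ac and H3K4me1 against other co-bound regions, then H3K27ac and H3K4me1 against SOX2-kept regions. None of these 4 passed with DP peaks required in all 3 libraries (42.4, 31.9, 2.14 and 4.17 points), SOX2 in at least 1 of 7 pluripotent libraries (33.1, 35, -2.64 and 2.93), the stronger 50% of each library (34.8, 27.9, 2.93 and 10.7), the central 500 bp (30.8, 28.1, 2.05 and 5.37) or regions at least 1 kb from a start site (32.6, 31.2, 2.59 and 6.16). With 1 library left out they ranged from 29.7 to 44.8, 24.8 to 33.3, 1.12 to 3.31 and 3.49 to 6.84 points, and 5 libraries of a mark allow no p below 0.0625. The direction changed only in the H3K27ac value of -2.64 against SOX2-kept regions, whose cause was not tested.

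The H3K4me1 difference between pluripotent and nEnd cells changed sign with SOX2 in at least 1 of 7 libraries (-4.17 points), overlap of at least 50% (-0.621) and equal peak numbers (-5.48), and ranged from -3.37 to 4.86 with 1 library left out. With the clone as replicate block it was -12.7 points (exact permutation p = 0.333, the smallest that the libraries of clone B9 allow). The H3K27ac difference was then 23.9 points (exact permutation p = 0.4). The H3K27ac difference ranged from 15.4 to 26.5 points with 1 library left out.

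The number of members was 1099 with DP peaks in any library, 123 with all 3, 316 with SOX2 in all 7 pluripotent libraries and 165 with the stronger 50% of peaks, and 121 to 508 with 1 library or experiment left out, the low values being without DP experiments A and A1. The share at least 1 kb from a start site was 91.1% with all 3 DP libraries, 89.7% with the stronger peaks and 85.5% to 90.9% with 1 left out, and 63.4% lay at least 5 kb away. The GATA string was in 62.7% (any library), 82.9% (all 3), 77.5% (at least 1 of 7), 80.6% (stronger peaks) and 71.7% to 82.6% (1 left out). The nEnd GATA6 difference from other co-bound regions was -6 points with all 7 and -5.74 with the stronger peaks, and -13.5 to -4.4 with 1 left out. From SOX2-kept regions it was 41.3 (any), 60.5 (all 3), 54.7 (all 7), 59.7 (stronger peaks) and 49.4 to 58.8 (1 left out). Leaving out chromosome Y, or comparing with regions of no pluripotent SOX2, both chosen after seeing the data, changed no direction and no call. Read depth is unknown, and peak number limits every share.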
